A study of Mus musculus with 4 samples.

Results

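The colons compared here were those of vehicle-treated mice, 1 pool labeled Pla2g3-/- against 1 pool labeled Pla2g3+/+. These are 2 of the 4 samples of the series, chosen by their labels, and each was hybridized to 1 array. The other 2 are colons of the same genotypes after azoxymethane (AOM), a carcinogen given in 6 weekly injections of 10 mg/kg. The colons of all 4 pools were taken 28 weeks after the last injection. All mice were male, 42 weeks old and of the strain given as B6.129 (n3), that is, a mixture of C57BL/6 and 129 Sv backcrossed to C57BL/6 for 3 generations, with Pla2g3+/+ littermates as controls. Vehicle was saline. The tissue was the whole descending colon, so the RNA holds epithelium, muscle, nerve, fat and blood cells together. The deposited design gives 3 to 5 mice per pool and the methods give 4. Because RNA was pooled before labeling, mice cannot be told apart, there is no replicate, and every difference below is a difference between 2 arrays with no test. The question was which genes differ between the genotypes, as labeled, without the carcinogen.

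Pla2g3 encodes group III secreted phospholipase A2, an enzyme that cleaves membrane phospholipids outside the cell and releases fatty acids and lysophospholipids, the precursors of many lipid mediators. The colon is lined by absorptive colonocytes and mucus-secreting goblet cells, and guards against bacteria with mucus and with secreted antimicrobial lectins such as those of the Reg3 genes, which are induced by the cytokine IL-22. Digestive zymogens are made by acinar cells of the pancreas, and albumin and most other plasma proteins by hepatocytes.

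The targeted gene was read first. Pla2g3 has 3 probes on the array, at chr11:3394109-3394168, chr11:3393127-3393186 and chr11:3399294-3399353 of mm9, on the plus strand. Their first 30 bases are shown because they define what was measured for the deleted gene.
Pla2g3, brightest probe: aggagtaaatgaattaatcaacacacatac
Pla2g3, second probe: ctgcaagtaacccaggcaatctggagacgc
Pla2g3, dimmest probe: aaatttcaggttgatgccctaaacatttct
The brightest probe gave an intensity (arbitrary units of the scanner) of 343 in the Pla2g3+/+ pool and 426 in the pool labeled Pla2g3-/-. The second gave 54.2 and 57.6. The dimmest gave 9.0, not well above background, and 24.9. No probe was lower in the pool labeled Pla2g3-/-. Which part of the gene was deleted is not given in the sources used here, so whether these probes lie inside it is not known, and these signals cannot check the labels. Directions below follow the labels. The AOM pools gave 304 for Pla2g3+/+ and 1632 for Pla2g3-/- with the brightest probe.

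The tissue itself matched its label in both vehicle pools. All 17 colonocyte genes and all 14 goblet cell genes that were examined were well above background on each array. Guca2a, the gene for the hormone guanylin, gave 189757 and 181355, and Zg16, a goblet cell lectin, 286444 and 262270. Between 64.8% and 68.6% of 43020 spots were well above background on the vehicle arrays and no spot was saturated. Spots of the same probe on one array had a median SD of 0.061 to 0.064 log2 units, an error of the array that leaves out variation between mice. Of 10 spike-in RNAs, the 8 above background on all their spots had log2 ratios of the pool labeled Pla2g3-/- to the Pla2g3+/+ pool from −0.21 to 0.03 (median −0.15). Xist, the noncoding RNA of the inactive X chromosome, was not well above background in the vehicle pools, at 2.71 and 3.66, but gave 1498 and 1014 in the AOM pools, although all mice were labeled male.

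Most genes had nearly the same signal in both pools. A ratio was formed for 16392 genes, each represented by its brightest probe after scaling each array by its 75th percentile, and 15471 of these were well above background on both arrays. Of the latter, 74.3% lay within 1.2-fold. In the pool labeled Pla2g3-/-, 316 genes were higher by over 2-fold (1.93% of those with a ratio) and 216 were lower by as much (1.32%). Where only one array had a signal well above background, the dim signal was replaced by the detection limit of its array (the lowest such signal, 10.7 for Pla2g3+/+ and 14.8 for Pla2g3-/-) unless it exceeded that, and the ratio is a bound, written "at least". Bounds made up 157 of the higher and 110 of the lower genes. The higher side held the larger ratios, with 24 genes over 16-fold higher against 0 over 16-fold lower, and 55 against 6 over 8-fold.

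Many of the differences lay near the detection limit. The brighter of the 2 signals was under 100 for 192 of the 316 higher genes and 137 of the 216 lower genes, and over 1000 for 28 and 11. The share past 2-fold among genes above background on both arrays was 4.84% at a mean intensity under 64, and 0.448% and 0.26% in the brighter 2 of 4 intensity classes. Olfactory and vomeronasal receptor genes, most of which a colon is not known to use, had 204 members with a ratio, and 26 of these were over 2-fold higher and 16 lower (20.6%). Single dim genes were therefore read with caution, and the account below leads with groups and with bright genes. A second probe above background on both arrays existed for 15 of the higher genes and went the same way in 12, past 2-fold in 6. For the lower genes these numbers were 15, 12 and 3.

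**Figure D1:**
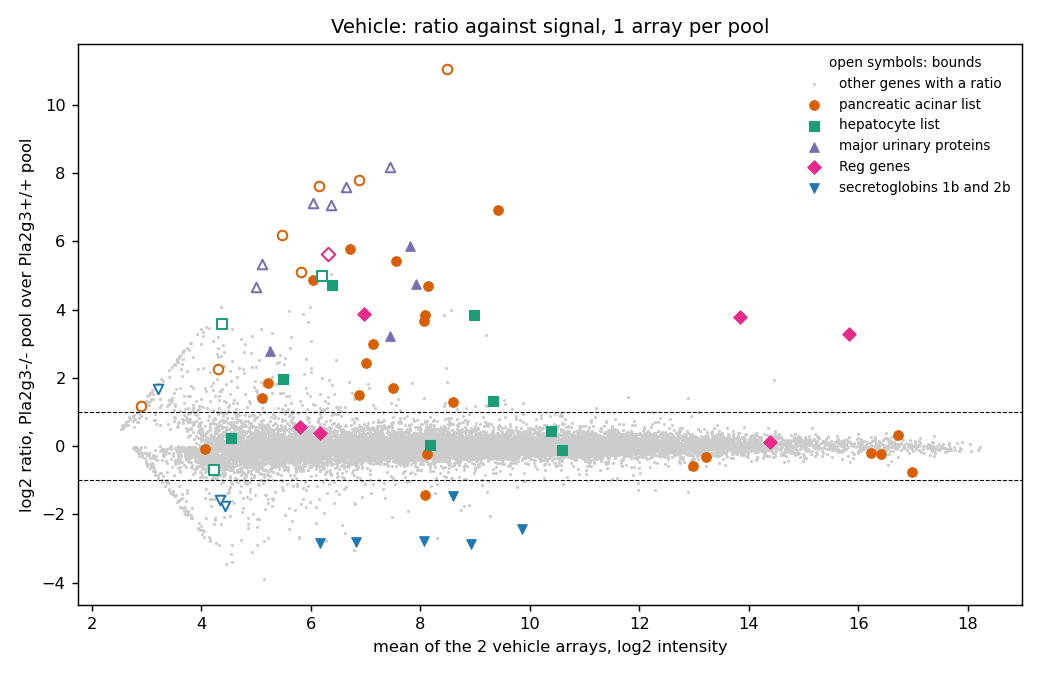
Log2 ratio of the pool labeled Pla2g3-/- to the Pla2g3+/+ pool (vertical axis) against the mean log2 intensity of the 2 vehicle arrays (horizontal axis), 1 point per gene, with dashed lines at 2-fold and open symbols for bounds. Most genes lie near 0, while acinar, hepatocyte, major urinary protein and several Reg genes lie above the upper line and most secretoglobins below the lower one.

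Genes of the exocrine pancreas were prominent among the higher genes, with the largest single ratio, that of Amy2a5. Of the 30 members of a pancreatic acinar list with a ratio, 21 passed 2-fold upward in the pool labeled Pla2g3-/- and 1 downward, against 1.93% and 1.32% of all genes. The median log2 ratio of the list was 2.06, against −0.02 over all genes. Amy2a5, a pancreatic amylase that digests starch, gave 5.69 in the Pla2g3+/+ pool, not above background, and 22552 in the other, at least 2091-fold more, by its brighter probe, and 12.7 and 991 by its other, at least 77.7-fold more. Amy1, the salivary and liver amylase, gave 62.2 and 7601, a log2 ratio of 6.92. The signals of both amylases thus ranged from dim to among the bright genes of an array.

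Both amylase probes lie on chromosome 3 of mm9, at chr3:113084781-113084840 for Amy2a5 and chr3:113258901-113258960 for Amy1. They share a run of 23 bases, in capitals in the stretches of 30 bases below, so the probes may not measure the 2 transcripts separately.
Amy2a5: gagGACCCATTTATTGCAATCCATGCtgac
Amy1: gaaGACCCATTTATTGCAATCCATGCagag
The same holds for 2 trypsinogens, Try4 (chr6:41255472-41255531) and Try5 (chr6:41261247-41261306), whose probes share a run of 31 bases, 30 of which are shown in capitals.
Try4: GCAAACTAAGCATCCCTTTGAAGTCATTAT
Try5: GCAAACTAAGCATCCCTTTGAAGTCATTAT
Try4 gave 2.38 and 2137 and Try5 5.77 and 2393, at least 198.1-fold and 221.9-fold higher. They are counted as separate genes but may not be separate evidence.

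Enzymes of each class of pancreatic juice were among the higher genes. For proteins, Prss2, another trypsinogen, gave 12.2 and 355.2, Ctrb1, the precursor of chymotrypsin, 55.8 and 1435, and Cela3b, an elastase, 2.54 and 776 (at least 71.9-fold higher). The carboxypeptidases Cpb1 and Cpa1 gave 28.6 and 1242 and 71.5 and 1037, log2 ratios of 5.43 and 3.85. For fats, Pnlip, the pancreatic triglyceride lipase, gave 14.1 and 779 (54.9-fold) and Cel, the bile salt-activated lipase, 49.9 and 401.5 (7.99-fold). Lower ratios were found for Gp2, the major protein of zymogen granule membranes, at 100.3 and 329.6 by one probe and 30.3 and 41.1 by another, and for Rbpjl, a transcription factor of acinar cells, at 21.0 and 56.6.

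Other members of the list did not follow. Sycn, a zymogen granule protein, gave 168155 and 99799, Spink1, a trypsin inhibitor, 94616 and 81329, Klk1, a kallikrein, 81875 and 71958, and Dmbt1, a mucosal scavenger protein, 96198 and 120918. Clps, the colipase gene, gave 9901 and 6619 and Cela1 10677 and 8550. All 6 were bright in both pools and within 2-fold, and intestinal tissue is known to express several of them. Pnliprp2, a lipase relative of Pnlip, was the one lower member past 2-fold, at 449.7 and 166.6. Ptf1a, the factor that specifies acinar cells, and Cuzd1 were below background in both pools. The list had 23 members above background in the Pla2g3+/+ pool and 30 in the pool labeled Pla2g3-/-, and its summed intensity, which the bright members dominate, was 463116 and 433311. Of 7 islet genes with a ratio, 0 were over 2-fold higher and 1 was lower, against 1.93% and 1.32% of all genes. A list this short often has no higher member, so the count is not a result about islet genes. Of the 7, 3 were above 1 in ratio and 4 below. The lower one was Ppy, pancreatic polypeptide, at 1365 and 683. The part of pancreatic tissue in these differences was not tested.

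**Figure D2:**
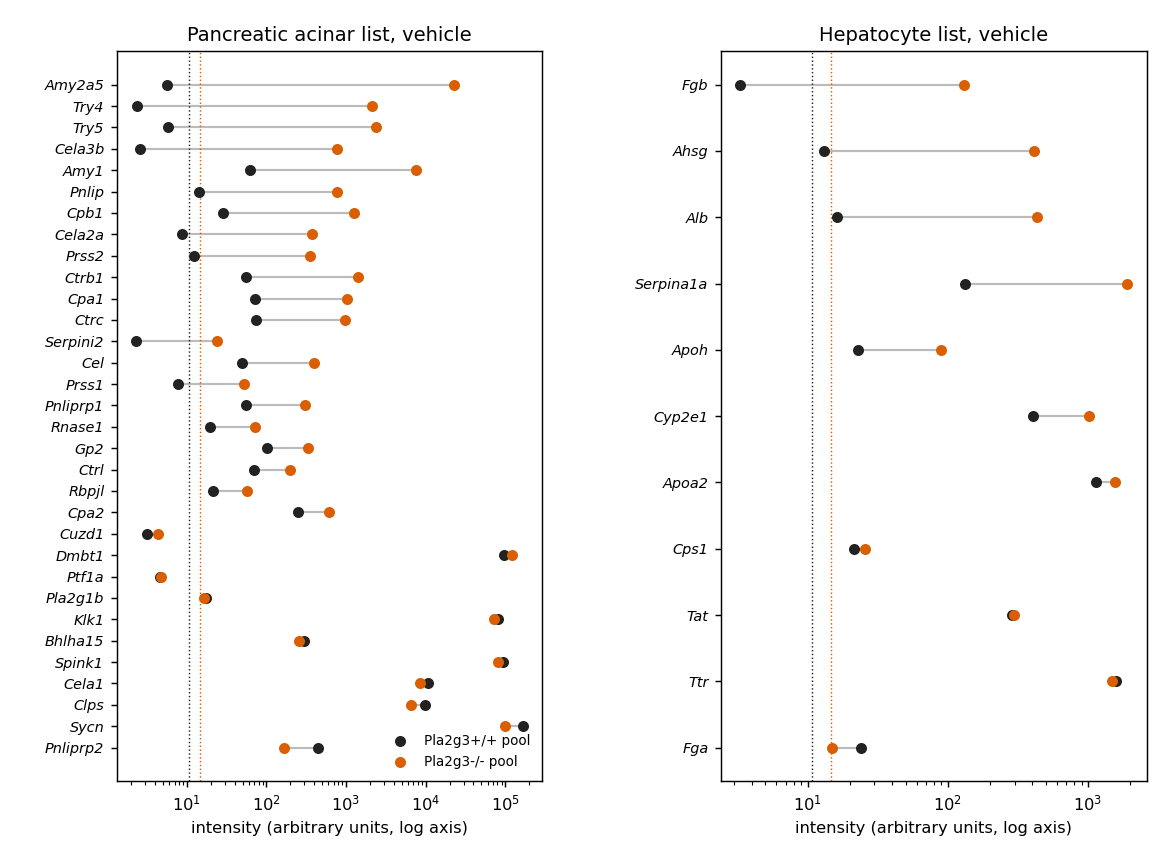
Intensity of each member of the pancreatic acinar list (left) and of the hepatocyte list (right) in the Pla2g3+/+ pool (black) and the pool labeled Pla2g3-/- (orange), on log axes, ordered by ratio. Dotted lines mark the lowest intensity well above background on each array, 10.7 and 14.8. The dim members of both lists differ most, whereas members above an intensity of 1000 in the Pla2g3+/+ pool lie close together.

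Hepatocyte genes and plasma protein genes were also higher. Of 11 members of the hepatocyte list, 6 were over 2-fold higher and 0 lower, against 1.93% and 1.32% of all genes. The median log2 ratio of the list was 1.32. Alb, albumin, gave 16.2 in the Pla2g3+/+ pool and 432.8 in the other, 26.5-fold more. Ahsg, the plasma glycoprotein fetuin-A, gave 13.1 and 413.7 (at least 31.3-fold) and Fgb, the fibrinogen beta chain, 3.32 and 129.7 (at least 12.0-fold). Apoh, a phospholipid-binding plasma protein, gave 22.9 and 89.7, and Cyp2e1, an ethanol-oxidizing cytochrome, 405.4 and 1018. Of the 6 higher members, Alb, Ahsg, Fgb and Apoh were near or below the detection limit in the Pla2g3+/+ pool, whereas Cyp2e1 and Serpina1a were not. The probes of Apoa2 disagree, with 1146 and 1558 by the brightest but 109.7 and 396.4, 3.59-fold higher, by the other. Ttr, transthyretin, gave 1589 and 1484, Tat, tyrosine aminotransferase, 285.2 and 294.5, and Cps1, a urea cycle enzyme, 21.5 and 25.7, so these members lay within 2-fold. Fga, the fibrinogen alpha chain, gave 24.1 and 14.8, the latter not well above background. Its log2 ratio of −0.71 is therefore a bound, and its decrease may be larger. The hepatocyte list and the acinar list were higher in the same pool, and the part of other tissue in either was not tested.

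The major urinary proteins, pheromone carriers that the mouse liver secretes in large amounts, were higher throughout. Of 11 genes on the array, 10 had a ratio and 10 were over 2-fold higher, with log2 ratios from 2.77 to at least 8.18 (median 5.59). Only 4 were above background in the Pla2g3+/+ pool. The other ratios are bounds, so the median is partly set by the detection limit. Mup19 gave 9.79 and 3134, Mup1 29.7 and 1727 and Mup20 4.77 and 1436. Mup4 gave 46.7 and 1261 by one probe and was below background in both pools by the other. Mup6 was below background in both pools. Summed over the family, intensity was 180 in the Pla2g3+/+ pool and 12473 in the pool labeled Pla2g3-/-, and 79.2 and 103.5 in the AOM pools. These genes are close copies in an array on chromosome 4. Of 45 pairs of their brightest probes, 2 share 20 bases or more, among them Mup17 (chr4:61253019-61253078) and Mup18 (chr4:61331294-61331353), with 35 bases in common, of which 30 are printed in capitals.
Mup17: CTAGGATACCTCATCAAGAATCAAAGACTT
Mup18: CTAGGATACCTCATCAAGAATCAAAGACTT
Their values, 2.92 and 1493 for Mup17 and 4.88 and 2073 for Mup18, therefore count as one measurement. The other pairs mostly share runs of about 6 bases, although these genes are similar enough that reads of one by the probe of another were not measured.

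A further group of secreted liver proteins was the alpha-1-antitrypsin genes, which encode inhibitors of neutrophil elastase and lie together on chromosome 12. All 4 were higher, with log2 ratios from 3.24 to 3.98, that of Serpina1d being a bound. Serpina1a gave 133.5 and 1906 and Serpina1e 94.3 and 1501. Of 6 pairs of their brightest probes 3 share 20 bases or more, up to 47, so these 4 genes are also only partly separate. Over the whole genome, 8 genes past 2-fold lay between positions 104854887 and 105632169 of chromosome 12 (mm9), of 15 with a ratio, and all 8 were serpins and higher. The acinar and hepatocyte lists with the urinary protein, antitrypsin, amylase, trypsinogen, elastase and Reg families accounted for 45 of the 316 higher genes, 33 of the 55 over 8-fold higher and 22 of the 24 over 16-fold higher. The lists were chosen with earlier results of these data known, and the families after their values were seen. Such a choice favors the largest rises, so these shares are a description and not a test.

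Reg genes were higher, and among these were the brightest transcripts that differed. All 7 members were above 1 in ratio and 4 were past 2-fold. Reg3b, a bactericidal lectin of the gut epithelium, gave 18635 in the Pla2g3+/+ pool and 182794 in the other, 9.75-fold more. Reg3g, a lectin that kills Gram-positive bacteria, gave 3970 and 54909, 13.7-fold higher. Reg1 gave 32.7 and 479.7 and Reg2 11.3 and 564.6 (at least 49.7-fold); both are also known as products of pancreatic acinar cells. Reg3d, Reg3a and Reg4 gave 45.7 and 68.3, 62.7 and 81.9, and 20555 and 22434, within 2-fold. The Reg differences stood on the same array as those of the acinar list (21 of 30 members higher), and the part of that list's tissue in them was not tested.

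The 4 higher genes lie close together on chromosome 6, from chr6:78323323-78323382 for the Reg3b probe to chr6:78416420-78416479 for that of Reg3g (mm9), next to Reg3a and Reg3d. Their promoters are shown because the 4 transcripts differed together. The 120 bases before each start were taken from RefSeq on GRCm38.p6, with the letters TATAAA in capitals.
Reg3g, chr6:78468875-78468994, minus strand: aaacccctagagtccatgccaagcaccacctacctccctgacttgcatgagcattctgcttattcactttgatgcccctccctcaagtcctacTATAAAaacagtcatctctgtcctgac
Reg3b, chr6:78370765-78370884, plus strand: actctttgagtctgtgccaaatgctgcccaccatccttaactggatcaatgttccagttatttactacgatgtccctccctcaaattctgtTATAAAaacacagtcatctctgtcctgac
Reg1, chr6:78425863-78425982, plus strand: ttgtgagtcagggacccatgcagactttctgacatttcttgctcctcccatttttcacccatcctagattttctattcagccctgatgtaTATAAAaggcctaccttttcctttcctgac
Reg2, chr6:78405035-78405154, plus strand: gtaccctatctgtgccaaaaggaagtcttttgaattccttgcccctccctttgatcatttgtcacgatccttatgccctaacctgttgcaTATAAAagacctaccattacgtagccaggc
Set side by side without gaps, at the best shift of up to 10 bases, Reg3g and Reg3b were identical at 61.9% of bases, with a run of 20 bases in common, and Reg1 and Reg2 at 52.5%. Between those pairs, identity was 34.5% to 37.3%. With Reg3a, Reg3d and Reg4, which lay within 2-fold, it ran from 30.3% to 40.2%, a range that includes the former. Letters in the promoters of those unmoved genes were not listed separately, so nothing below is particular to the higher Reg genes. TATAAA was found on either strand within 250 bases before the start in all 4 genes, in 8 of 18 higher acinar genes that have a promoter entry and in 1 of 6 higher hepatocyte genes, against 14.3% of 27025 genes. TTCNNNGAA, the core of the STAT recognition sequence, was in Reg3b alone of the 4 Reg genes and in 8.13% of all genes. The HNF1 consensus was in none of the 3 groups and in 0.074% of all genes. A match says only that the letters are there.

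Genes around IL-22 signaling were read from a list of 23 epithelial defense genes. Of the 22 with a ratio, 3 were over 2-fold higher and 0 lower, against 1.93% and 1.32% of all genes. The 3 were Reg3g, Reg3b and Socs3, a feedback inhibitor of STAT3, at 488.5 and 1160. The median of the list was 0.04, near that of all genes. Retnlb, a goblet cell resistin, gave 117066 and 108684, Lcn2, an iron-trapping protein, 193.6 and 197.7, and Saa1 114906 and 86051. These members lay within 2-fold, as most genes did. Il22 gave 13.7 and 46.2 (3.35-fold) and Il17a 4.57 and 25.1 (at least 2.33-fold), both close to background.

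**Figure D3:**
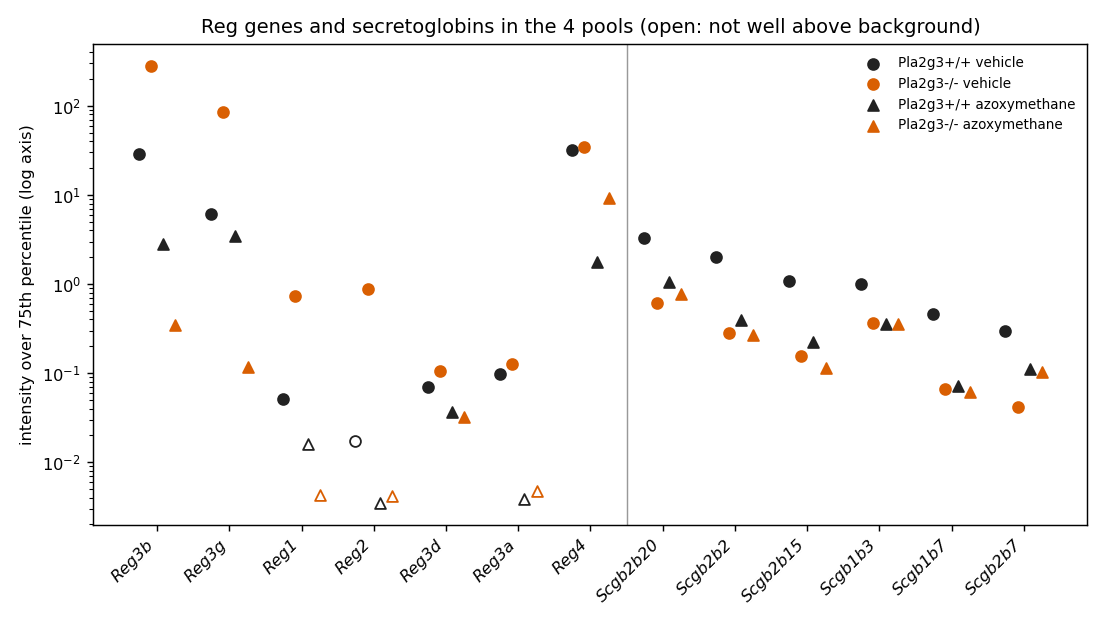
Scaled intensity, with the 75th percentile of each array set to 1 (log axis), for 7 Reg genes and 6 secretoglobin genes in the 4 pools, with circles for vehicle, triangles for AOM, orange for Pla2g3-/- and open symbols for signals not well above background. With vehicle, 4 Reg genes are higher and the 6 secretoglobins lower in the pool labeled Pla2g3-/-. After AOM, Reg3b and Reg3g are lower in it.

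Of the families looked at, the lower one with the largest median was that of secretoglobins 1b and 2b, the androgen-binding proteins of mouse saliva and other secretions. Of 18 such genes on the array, 9 had a ratio, 8 were over 2-fold lower and 1 was higher, and the other 9 were below background in both pools. Scgb2b20 gave 2131 in the Pla2g3+/+ pool and 401.6 in the other, a 5.34-fold decrease. Scgb2b2 gave 1304 and 181.6, Scgb2b15 701 and 102.4, and Scgb1b3 643.6 and 236.7. Scgb1b7 gave 300.7 and 43.0 and Scgb2b7 191 and 27.2, log2 ratios of −2.82 for both. The exception, Scgb1b24, gave 2.50, not above background, and 34.3. They lie in 2 groups on chromosome 7 of mm9, between 32089876 and 32498910, where 4 of 4 genes with a ratio were lower, and between 33612888 and 34530122, where 4 of 6 were. Of 36 pairs of their brightest probes 2 share 20 bases or more.

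Most genes of a second cluster were lower. Cyp3a genes encode cytochromes that oxidize drugs and steroids, mainly in liver and small intestine. By their brightest probes, all 8 were below 1 in ratio and 6 were past 2-fold, these 6 lying between 146151322 and 146920697 of chromosome 5 (mm9), where 7 genes had a ratio. Cyp3a44 gave 463.9 and 215.8, Cyp3a16 139.7 and 56.3 and Cyp3a25 121.2 and 41.8. Cyp3a11 gave 121.5 and 65.6 by its brightest probe but 19.1 and 47.8, 2.49-fold higher, by the other, so its probes disagree. The Cyp3a44 and Cyp3a41b probes share a run of 23 bases and may not be separate evidence. Cyp3a13, the bright member and the one outside that interval, gave 4464 and 3886. The direction was thus opposite to that of the hepatocyte list. Among small intestinal enterocyte genes, Sis, the sucrase-isomaltase of the brush border, was lower at 212.9 and 43.0, while Fabp1, a fatty acid-binding protein of liver and intestine, was higher at 121.2 and 443.6.

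Other decreases are given gene by gene. Dnase1l2, a DNase of keratinizing epithelia, gave 317.1 and 39.0 (8.18-fold lower) and Adora2b, an adenosine receptor of the colon epithelium, 138.7 and 21.8 by one probe but 35.9 and 25.4 by the other. Mid1, a ubiquitin ligase gene on the X chromosome, gave 802 and 124 by its brightest probe, 28.2 and 20.8 by another and not above background by the remaining one, so this decrease rests on 1 probe of 3. Zan, the sperm protein zonadhesin, gave 237.6 and 40.8. Gm525 (219.3 and 5.72, at least 14.9-fold lower) and Gli2, a hedgehog transcription factor (154.7 and 3.64, at least 10.5-fold lower), had large bounds. Among single higher genes, Gdpd3, a lysophospholipase D, gave 90.6 and 1310 and Foxr1, a forkhead factor, 15.4 and 260.4. Iglv1, an antibody light chain segment singled out after its values were seen, gave 11515 and 44173. Of 8 plasma cell genes 0 passed 2-fold, against 3.25% of all genes, so that count is not a result about plasma cells.

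**Figure D4:**
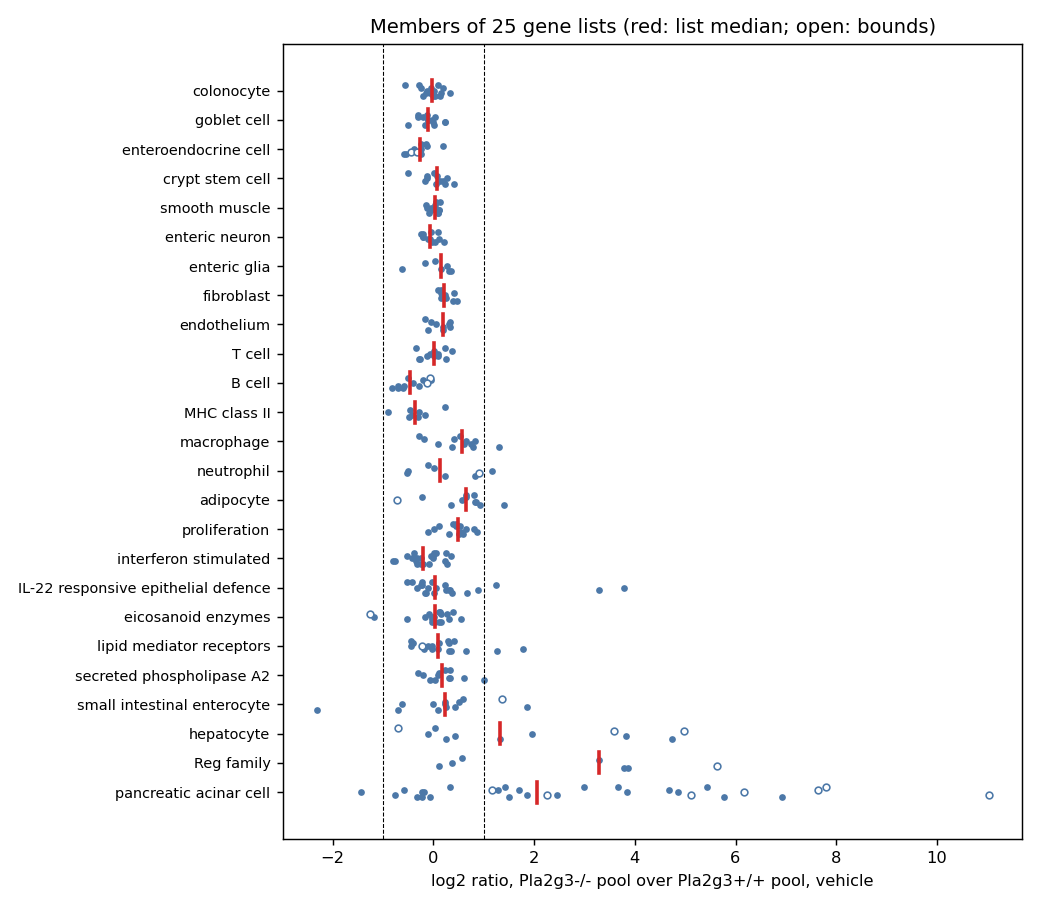
Log2 ratio of the pool labeled Pla2g3-/- to the Pla2g3+/+ pool for each member of 25 gene lists, with red bars for list medians, open points for bounds and dashed lines at 2-fold. The colonocyte, goblet cell and smooth muscle lists center near 0, the B cell list lies below it, and the acinar, Reg and hepatocyte lists extend to the right.

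Most cell types of the colon wall had few or no genes past 2-fold. Of 62 lists of cell types and pathways, 39 had no member past 2-fold, and the medians of those with 3 or more ratios ran from −0.46 to 0.48. Because only 3.25% of all genes passed 2-fold, a short list often has no such member. The count of 39 is therefore not a result about these cell types. Members within 2-fold throughout were those of colonocytes (median −0.02), goblet cells (−0.11), crypt stem cells (0.06), smooth muscle (0.03), enteric neurons (−0.06), T cells (0.02) and tight junctions (−0.01). Shifts in one direction ran through some lists, and of the next 3 none had a member past 2-fold. All 12 B cell genes were below 1, among them Ms4a1, the CD20 gene, at 406.1 and 272.8, and so were 7 of 8 MHC class II genes. Proliferation genes were above 1 in 13 of 14, such as Mki67 at 1867 and 2811 and Plk1, a mitotic kinase, at 1138 and 2096. Adipocyte genes had a median of 0.64, with 9 members above 1 and 2 below. Cfd, the complement factor adipsin, was the 1 member past 2-fold, at 4681 and 12456. Adipoq, adiponectin, gave 859 and 1639 and Fabp4 4572 and 8002, while Pck1, also bright, was slightly lower at 2862 and 2471. Macrophage genes had a median of 0.57, with 10 members above 1 and 2 below. Adgre1, the F4/80 gene, gave 267.5 and 463.8. Chil3, a chitinase-like protein of activated macrophages, was the 1 member past 2-fold, at 22.7 and 56.2. The 3 brightest members did not share the rise, Itgam at 12082 and 9982, Csf1r at 3584 and 3861 and Cd14 at 1986 and 1764. Summed over the macrophage list, intensity was 21920 and 21948. In bulk tissue, more cells of a type and more RNA per cell cannot be told apart.

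In lists of lipid mediator genes, the pathway of the targeted enzyme, 5 genes passed 2-fold. They are set against 3.25% of all genes, and each list held only 1 or 2 such genes. Of 12 secreted phospholipase A2 genes including the receptor Pla2r1, only Pla2g12b passed 2-fold, just over it at 112 and 226. Pla2g10, the brightest secreted phospholipase of the list, gave 17222 and 18710 and Pla2g5 2229 and 2386. Among 19 eicosanoid enzymes with a ratio, 2 were over 2-fold lower. These were Hpgds, which makes prostaglandin D2, at 81.2 in the Pla2g3+/+ pool and 2.27-fold less in the other, and Alox12e, an epidermal lipoxygenase, at 35.0 and 8.23 (at least 2.38-fold). The cyclooxygenases gave 1084 and 1347 (Ptgs1) and 61.6 and 55.4 (Ptgs2). Among 18 receptors, Ptger2, a prostaglandin E2 receptor, gave 44.9 and 155.3 (3.43-fold higher) and Fpr2, a receptor of lipoxins and formyl peptides, 15.5 and 37.2. Ptger4, the other prostaglandin E2 receptor that raises cyclic AMP, gave 267.7 and 204.5.

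The panel of epithelial and inflammatory genes that the study chose on these samples had 23 members with a ratio. Of these, 5 were over 2-fold higher and 0 lower, against 1.93% and 1.32% of all genes, with a median log2 ratio of 0.22. Because the panel was chosen on these same samples, the count is a description and not a test. The 5 were Reg3g, Il22, Il17a, Defa3, an alpha-defensin of Paneth cells, and Dsg1a, a desmosomal cadherin. Defa3 gave 9.11 and 85.3 and Dsg1a 5.03 and 52.8, the first value of each not above background. Another Defa3 probe gave 13.3 and 71.1, and the remaining one was below background in both pools, at 2.58 and 8.08. All but Reg3g were dim in both pools. Of 15 alpha-defensin genes on the array Defa3 was the one past 2-fold, whereas 9 had no signal above background in either pool. Il1b gave 65.6 and 62.8, Tnf 104.6 and 78.9 and Ifng 37.4 and 21.5, within 2-fold.

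Because the mice were backcrossed for few generations, genes next to Pla2g3 were examined. Of 29 genes with a ratio within 1 Mb on chromosome 11, 1 was past 2-fold, of 75 within 5 Mb 4, and of 84 within 10 Mb 5 (5.95%), against 3.25% of all genes. The one within 1 Mb was Inpp5j, a phosphoinositide phosphatase gene, whose probe at chr11:3394386-3394445 lies on the opposite strand 0.000277 Mb from the brightest Pla2g3 probe. It gave 6328 in the Pla2g3+/+ pool and 2597 in the other, a 2.45-fold decrease, and is the brightest of these 5. Camk2b, a calcium/calmodulin-dependent kinase gene 2.48 Mb away, gave 1262 and 305.3 by one probe and 86.0 and 23.2 by its other, both lower. Ccdc117 was lower, at 273.3 and 126.4. Myl7, the atrial myosin light chain, was higher at 118.9 and 310.9, and so was Grb10, an adaptor of the insulin receptor, at 19.4 and 54.4. Shares per chromosome ran from 2.11% on chromosome 10 to 4.8% on chromosome 16 among the autosomes, with 3.47% on chromosome 11.

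**Figure D5:**
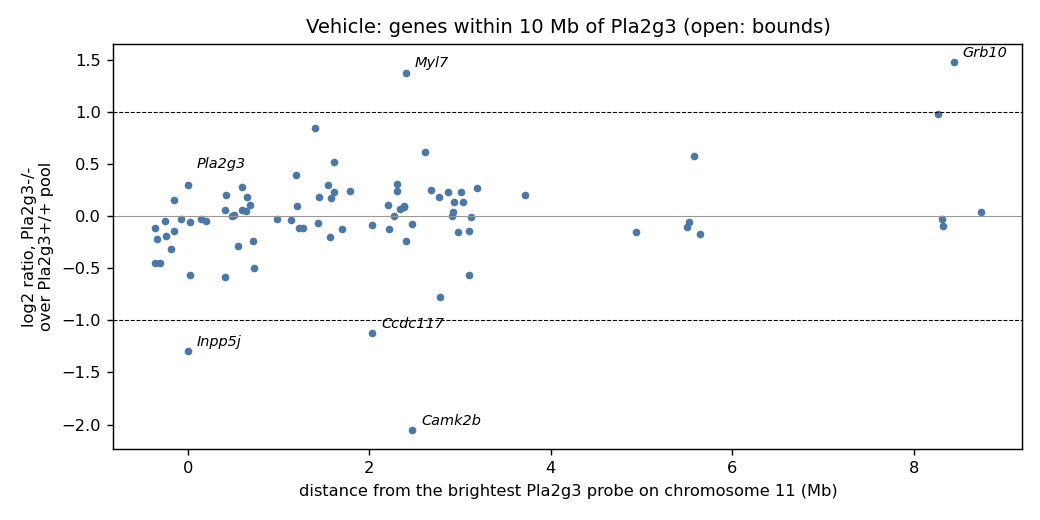
Log2 ratio of the pool labeled Pla2g3-/- to the Pla2g3+/+ pool for each gene within 10 Mb of Pla2g3 on chromosome 11, against its distance in Mb, with dashed lines at 2-fold. Of these genes 5 lie outside the lines, and Inpp5j is the one nearest to Pla2g3.

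The same ratio in the AOM pools, which share no array with the vehicle pools, was set beside these values. After AOM, 28.0% of genes passed 2-fold, so a single gene past 2-fold there is common. Of the genes past 2-fold with vehicle, 340 had a ratio after AOM. Of these, 63 passed 2-fold in the same direction and 95 in the opposite one. The other 192 had no ratio after AOM. Their signals were below background in both AOM pools or, as for Rhox4e, above it in the Pla2g3+/+ pool alone by too little for a bound. Amy2a5 (4.41 and 7.96), Pnlip (3.62 and 3.80), Cpa1 (3.63 and 3.80) and, of the major urinary proteins with a vehicle ratio, all but Mup2 were below background in both AOM pools. Other acinar genes did have a signal after AOM, and they went both ways. Amy1 gave 57.9 and 128.1 and Gp2 87.1 and 1043, while Cpb1 was at least 3.67-fold and Prss1 at least 3.40-fold higher in the Pla2g3-/- pool, all in the vehicle direction. Pnliprp1 gave 5688 and 76.6, against it. Alb gave 2782 in the Pla2g3+/+ pool after AOM and 12.2 in the Pla2g3-/- pool. Reg3g gave 4488 and 135.5 and Reg3b 3642 and 406, against the vehicle direction. Camk2b, at 576 and 320, and the secretoglobins Scgb2b20, at 1392 and 895, and Scgb2b2, at 518 and 309.5, kept the direction of the vehicle pools within 2-fold. Inpp5j gave 2199 and 3746.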

How the data were processed

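RNA pooled within each group (27.7 ng labeled) was hybridized to 1 one-color Whole Mouse Genome array per pool, all on 1 slide. The authors deposited the spot intensity from Agilent Feature Extraction 11.5.1.1, which per the file headers was background-subtracted and detrended but not scaled between arrays. A deposited p-value per spot tests equality with background; its flag for signals well above background was used. The deposited table is a ratio, the authors' intensity over the 75th percentile of the array, as a check against each array showed.

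Control and outlier spots were left out, log2 intensities of repeated spots were averaged, and the 75th percentile of spots was subtracted. Of 39429 probes, 31372 were named through RefSeq (GRCm38.p6, names and promoters only; array coordinates are mm9). A gene took its brightest probe over 4 arrays. The threshold was 2-fold, as in the study. Named genes were Pla2g3, the 15 largest changes each way, the 8 largest bounds each way, list members past 2-fold, the 3 brightest members of lists that moved and the brightest of the others, the study's panel, and genes near Pla2g3. Members and lists were chosen with earlier results of these data known, and families by symbol and single genes outside this rule after their values were seen. The calculation was tested on simulated data. Alternatives used limma 3.58.1 in R 4.3.3; tables and figures used Python 3.11.15.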

Additional observations from a re-analysis of the deposited data

Results flagged for a closer look

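For 14 of the genes named, well above background on all 4 arrays, the log2 ratio of the pool labeled Pla2g3-/- to the Pla2g3+/+ pool exceeded 2-fold one way with vehicle and the other way after AOM. Whether the 2 ratios differ was not tested, each resting on 1 pool per group.

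Higher with vehicle and lower after AOM were 10 genes. Gdpd3 had 3.84 and −3.09, Reg3g 3.78 and −4.89, and Reg3b 3.28 and −3.003. Pnliprp1, a pancreatic lipase relative, had 2.45 and −6.05. Chil3 had 1.30 and −3.94, Fpr2 1.26 and −3.23, and Retnlg, a resistin-like gene of neutrophils, 1.16 and −5.61. Socs3 had 1.24 and −2.94, Timp1, an inhibitor of metalloproteinases, 1.07 and −3.26, and Myl7 1.38 and −2.14.

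Lower with vehicle and higher after AOM were 4 genes. Mid1 had −2.70 and 4.34, and Zan −2.55 and 3.42. The Mid1 values rest on 1 probe of 3, and the other probes had 0.16 and 0.50 after AOM. Ppy had −1.01 and 2.30 and Tnnc2, a troponin of fast muscle, −1.01 and 5.41, both just past 2-fold with vehicle.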

How the results depend on the processing

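The numbers of genes over 2-fold higher with vehicle (316) and genes over 2-fold lower with vehicle (216) stayed within 1.5 times under quantile normalization, no scaling, median scaling, cyclic loess, a floor, the mean or the dimmest probe, the deposited table and, chosen after seeing the data, the brightest vehicle probe and spike-in scaling. The spike-ins moved the median of all genes by 0.15 and the share of higher calls from 59.4% to 68.4%. Normexp with quantile normalization gave 111 higher and 84 lower, only genes above background on both arrays 159 and 106, and no filter 675 and 709. No filter also moved the share of higher calls to 48.8%. A 1.5-fold threshold gave 664 and 570, and 4-fold 121 and 60. The acinar median (2.06) was 2.23 with quantile normalization, 1.11 with normexp, 1.505 on genes above background on both arrays, 2.15 with no filter, with the mean of probes and with the brightest vehicle probe, and 2.20 with spike-in scaling. The hepatocyte median (1.32) was 0.84 with normexp, 0.88 on genes above background on both arrays, 1.63 with the mean of probes, 1.90 with the dimmest probe and 1.46 with spike-in scaling. The secretoglobin 1b and 2b median turned from −2.42 to 0.30 with no filter, which adds members below background. Of 93 named genes past 2-fold, 27 no longer passed with normexp, among them Il22 (0.60), and 0 to 7 under the other alternatives that kept bounds, with 0 reversed. No paired analysis was possible because each group has 1 array, and for the same reason no array could be left out. The number of arrays limits the precision.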
